A study of Mus musculus with 42 samples.

Results

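Osteoclasts are the bone-resorbing cells that form when precursors of the monocyte and macrophage lineage fuse. The cytokine RANKL, made by cells around them, binds the receptor RANK on the precursor, and signals through NF-κB and AP-1 factors raise and activate the transcription factor NFATc1. NFATc1, with MITF and PU.1, then turns on genes for fusion, for acid secretion and for the enzymes that dissolve bone matrix. Macrophages grown from bone marrow in M-CSF are competent precursors, carry RANK, and become osteoclasts in culture when RANKL is added. The signal from RANK is helped by receptors that pair with ITAM adaptors, of which OSCAR is one.

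The 9 osteoclast-lineage genes described here were found by gene symbol among 54532 annotated genes: Tnfrsf11a, Oscar, Nfatc1, Dcstamp, Atp6v0d2, Src, Acp5, Ctsk and Mmp9. RNA was sequenced from bone marrow-derived macrophages of male wild-type C57BL/6 mice, cultured from whole marrow with M-CSF. The labels name no RANKL treatment in any group. The 42 libraries fall into 12 groups, the same 6 conditions in cells of young mice, aged 10 to 12 weeks, and of aged mice, aged 18 to 20 months. Control cells were given 0.1% normal saline for 24 h and were harvested 3 days later. β-Glucan, a fungal cell wall polysaccharide that macrophages sense mainly through dectin-1, was used at 5 µg/mL and cells were taken after 4 h, after 24 h, or 3 days after a 24 h exposure (the day 3 group). Naive LPS cells received 100 ng/mL of the bacterial lipopolysaccharide LPS for 4 h, and primed LPS cells received β-glucan for 24 h and the same LPS for the last 4 h of day 3. Young control and young LPS had 6 libraries each, and the other 10 groups had 3 each. As labelled, the day 3 groups match the control in time, whereas for the 4 h, 24 h and naive LPS groups time in culture and treatment cannot be told apart. All comparisons with the control share its libraries, so they are not independent of each other.

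Each library held 39850835 to 67347866 counted reads. A level below is given in CPM, counts per 1000000 reads of the library after scaling by edgeR's TMM factors, which divide out differences in library composition. Changes are log2 fold changes from edgeR's quasi-likelihood test with their standard errors (SE), and a gene was called when its p, adjusted by Benjamini-Hochberg over all 17648 genes tested, was below 0.05. The labels speak of biological replicates without saying that each came from its own animal, so p-values measure the spread between these libraries. Young replicates 4 to 6 exist in the control and LPS groups alone, and the model gives them a term of their own. Of the 8 members tested, 2 were lower in these libraries than in young replicates 1 to 3 and 1 was higher, where 17.4% of all genes were called. Atp6v0d2 was lower by a log2 difference of -1.22 (adjusted p = 4.62e-05), Dcstamp by -1.27 (adjusted p = 0.00513), and Mmp9 was higher by 1.03 (adjusted p = 0.00758) in edgeR's test. For these genes the pooled young control mixes both sets, and fold changes of young cells from the model differ from ratios of the pooled means.

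Macrophage identity was high throughout, and the 6 mature osteoclast markers together stayed far below the macrophage markers. The 6 macrophage markers summed to between 4397 and 7510 CPM in every library. Of the 6 mature osteoclast markers, 3 are the members Acp5, Ctsk and Mmp9. Of the other 3, Calcr, the calcitonin receptor, had 18 reads in all 42 libraries together, and Ocstamp, a fusion protein, had 899. Itgb3, the β3 integrin subunit, was present in every group. Its group means ran from 3.55 CPM in young LPS to 66.2 CPM in young cells at 24 h of β-glucan. Acp5 reached a mean of 33.4 CPM in young LPS. The 6 markers summed to between 16.8 and 22.2 CPM in young control and between 52.6 and 106 CPM in young cells after 24 h of β-glucan, and in aged cells between 19.8 and 23.9 CPM and between 44.9 and 105 CPM. With LPS the sum was 45.4 to 55.9 CPM in young and 39.0 to 47.6 CPM in aged cells. Markers of stromal cells, 7 genes that marrow cultures can carry, summed to between 29.6 and 89.4 CPM in young control and between 54.9 and 148 CPM in aged control. With LPS the stromal sum was 34.7 to 135 CPM in young and 105 to 174 CPM in aged cells, and its part in the results below was not tested. The 6 neutrophil markers summed to between 1.52 and 4.53 CPM, of which S100a8 had 5436 reads in all while Ly6g had 0, and of the T cell markers Trac had 26 reads and Cd3e had 0.

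After 24 h of β-glucan, 6 of the 8 tested members were higher in young cells and none lower: Src, Mmp9, Acp5, Dcstamp, Atp6v0d2 and Ctsk. Across all genes 11.5% were called in that comparison, and the members' median log2 fold change was 1.34 against -0.003 for all genes. In aged cells 5 of 8 were higher, the same genes except Dcstamp, where 5.22% of all genes were called; the members' median was 1.09. After 4 h, Acp5 and Src were higher and Nfatc1 and Tnfrsf11a were lower in young cells, 4 of 8 against 12.1% of all genes. In aged cells at 4 h, Acp5 and Src were higher and Nfatc1 was lower, 3 of 8 against 6.47% of all genes. Under total counts Tnfrsf11a was also called lower at 24 h in young cells and at 4 h in aged cells, and Ctsk was not called at 24 h in aged cells. Bulk RNA cannot tell a change in the number of cells that express a gene from a change in RNA per cell.

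On day 3 after β-glucan no member was called by edgeR at either age. In young cells 0.782% of all genes were called. There 3 members, Ctsk, Atp6v0d2 and Src, had an unadjusted p below 0.05, and DESeq2 called 2, Atp6v0d2 and Src. In aged cells 0.221% of all genes were called. There 4 members, Acp5, Ctsk, Atp6v0d2 and Src, had an unadjusted p below 0.05, and DESeq2 called 0. Day 3 Src libraries ran from 3.93 to 5.26 CPM in young cells, where no control library exceeded 2.85 CPM. In aged cells they ran from 2.28 to 5.12 CPM, where no control library exceeded 1.90 CPM. The young Src change was 1.42 (log2) by edgeR and 1.51 by DESeq2 (adjusted p = 0.0309). From 24 h to day 3, Acp5, Mmp9 and Src fell in young cells, 3 of 8 members against 4.52% of all genes. The call for Src (log2 -1.68) was lost without young 24 h replicate 1 (edgeR adjusted p = 0.440) or 3 (0.130). It was also lost without any one young day 3 library (adjusted p = 0.0905 to 0.142) and with the groups fitted alone (0.284). In aged cells Acp5 alone fell over that interval, 1 of 8 members against 2.18% of all genes.

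With LPS, 6 of the 8 tested members were called at both ages, in a background where 65% of all genes were called in young cells and 55.5% in aged cells. Acp5, Src, Mmp9 and Tnfrsf11a were higher and Nfatc1 and Atp6v0d2 were lower in both. The members' median log2 fold change was 0.39 in young and 0.23 in aged cells, and the median of all genes was -0.0983 and -0.0831. A share of 6 in 8 stands near that background. LPS also shifted library composition: when libraries were scaled by total counts in place of TMM, the median gene moved by -0.8963 in young and -0.8177 in aged cells. Under that scaling 3 members were higher and 4 lower in young cells, with Tnfrsf11a turned from higher to lower and Ctsk added as lower. In aged cells 2 were higher and 4 lower under total counts, with Tnfrsf11a again turned, Ctsk added as lower and Mmp9 no longer called.

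Primed LPS cells were also compared with day 3 cells, which had the same β-glucan and no LPS. Here 4 members were higher and 2 lower in young cells, where 51.7% of all genes were called, and the same 4 and 2 in aged cells, where 52.2% were called. Under total counts the split was 2 higher and 4 lower in young and 2 higher and 3 lower in aged cells, with Tnfrsf11a lower in both. Between primed and naive LPS cells edgeR called no member. In young cells 3.61% of all genes were called; 3 members, Ctsk, Atp6v0d2 and Nfatc1, had an unadjusted p below 0.05, and DESeq2 called 1, Atp6v0d2. In aged cells 0.986% of all genes were called; 2 members, Ctsk and Atp6v0d2, had an unadjusted p below 0.05, and DESeq2 called both.

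**Figure D1:**
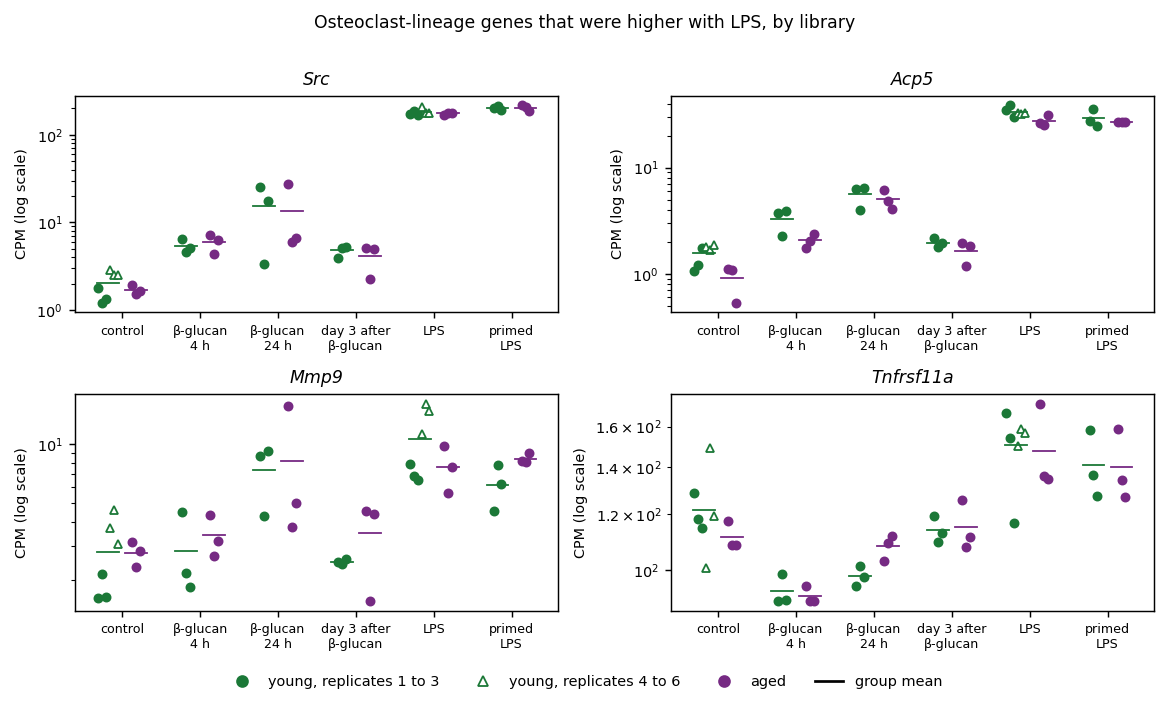
Level in CPM, on log axes, of Src, Acp5, Mmp9 and Tnfrsf11a in each of the 42 libraries by condition; points are libraries, open triangles are young replicates 4 to 6, and lines are group means. Src and Acp5 in every LPS library lie above every library without LPS. Tnfrsf11a is higher with LPS on this TMM scale and lower under scaling by total counts.

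Among the receptors, Tnfrsf11a encodes RANK, the receptor for RANKL, and lies at chr1:105780718-105847981 on the plus strand of mm10. It was one of the more abundant members, at 122 ± 16.2 CPM (SD, n = 6) in young control, which is 20.4 CPM per kb of gene length. Young control libraries ran from 101 to 149 CPM with a median of 119, and the 3 young libraries at 4 h of β-glucan read 90.5, 98.7 and 90.8 CPM. All 3 lay below every control library. The change was -0.36 ± 0.10 (log2, SE; adjusted p = 0.0171). Aged control libraries read 118, 108 and 109 CPM and aged 4 h libraries 94.96, 90.5 and 90.5 CPM, again without overlap, with a change of -0.28 that edgeR did not call (adjusted p = 0.154). The call in young cells was kept in 6 of the 9 fits that each left out 1 library. At 24 h the young libraries read 95.1, 101 and 97.9 CPM (log2 -0.28 ± 0.10, adjusted p = 0.0704).

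Young LPS libraries ran from 117 to 167 CPM with a median of 155 for Tnfrsf11a, and 1 of them, replicate 3, lay within the control range while the other 5 lay above it. The fitted change was 0.30 ± 0.078 (log2, SE; adjusted p = 0.000719), or 0.40 relative to the median of all genes. In aged cells LPS libraries read 172, 136 and 135 CPM, all above the aged control, and the change was 0.41 ± 0.11 (adjusted p = 0.00172). Under scaling by total counts the same contrasts gave -0.50 in young and -0.33 in aged cells, so the direction for this gene depends on the scaling. Oscar, the collagen receptor that signals through the Fc receptor γ chain, lies at chr7:3609813-3616157 on the minus strand. It had 66 reads over all 42 libraries and 0 to 14 in any one, and no group mean exceeded 0.0815 CPM. It did not pass the filter on low counts and was not tested.

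Nfatc1, the master transcription factor of osteoclast formation, lies on chromosome 18 between 80606205 and 80713071, minus strand. It was lower with LPS in every library and dipped briefly after β-glucan. Young control libraries ran from 62.5 to 71.0 CPM with a median of 67.9, and the 4 h libraries read 48.2, 46.4 and 53.9 CPM. Every 4 h library lay below every control library, and by 24 h the young libraries, at 63.2, 66.7 and 65.9 CPM, were back inside the control range. The 4 h change was -0.38 ± 0.087 (log2, SE; adjusted p = 0.00161) in young cells. Aged libraries went from 56.1, 66.1 and 67.7 CPM in control to 47.4, 51.4 and 52.5 CPM at 4 h, a change of -0.33 ± 0.092 (adjusted p = 0.0194) that was called in 3 of the 6 fits leaving out 1 library. At 24 h the change was 0.02 in young cells (adjusted p = 0.941).

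Young LPS libraries held Nfatc1 at 22.0 to 30.1 CPM with a median of 25.2, and the aged ones read 22.5, 23.4 and 25.9 CPM. These values do not overlap with any library without LPS, of which the lowest was 46.4 CPM. The change was -1.43 ± 0.067 (log2, SE; adjusted p = 3.12e-22) in young and -1.40 ± 0.095 (adjusted p = 1.34e-16) in aged cells. Ordered by group, the 12 means fell into 3 separated bands: 6 groups at 61.3 to 67.5 CPM, both 4 h groups at 49.5 and 50.4 CPM, and 4 LPS groups at 23.9 to 27.2 CPM. The LPS groups overlapped one another, as did both 4 h groups. In the top band young day 3, at 58.3 to 62.9 CPM, lay below young 24 h, at 63.2 to 66.7 CPM, and aged 24 h, at 64.4 to 69.98 CPM. Per kb of gene length, Nfatc1 at 9.04 CPM in young control stood beside Nfatc3 at 7.65, Nfatc2 at 5.64 and the osmotic-stress member Nfat5 at 2.84, and with LPS these 4 were at 3.37, 3.73, 0.306 and 3.63.

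**Figure D2:**
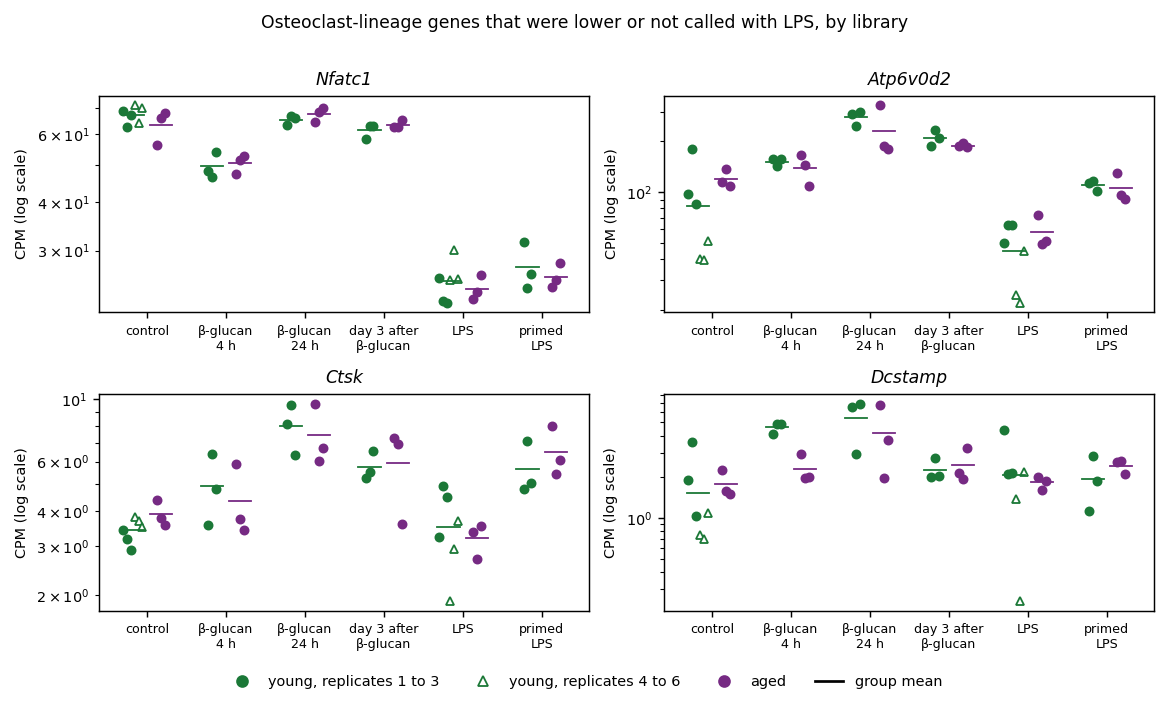
Level in CPM, on log axes, of Nfatc1, Atp6v0d2, Ctsk and Dcstamp in each library by condition; points are libraries, open triangles are young replicates 4 to 6, and lines are group means. Nfatc1 falls into 3 bands with the LPS groups lowest, and Atp6v0d2 is highest at 24 h and day 3 after β-glucan.

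For cell fusion, Dcstamp encodes DC-STAMP, a membrane protein without which precursors do not fuse, and lies at chr15:39745930-39760938 on the plus strand. It was rare, with 7 to 387 reads per library. Young control libraries ran from 0.699 to 3.59 CPM with a median of 1.06, young 4 h libraries read 4.12, 4.91 and 4.88 CPM, and young 24 h libraries read 6.46, 2.92 and 6.87 CPM. The 4 h libraries all lay above the control, while 24 h replicate 2 lay below the highest control library. The 24 h change was 1.35 ± 0.39 (log2, SE; adjusted p = 0.0181) and the 4 h change 1.13 ± 0.39 (adjusted p = 0.0527). The 24 h call was lost without young 24 h replicate 1 (adjusted p = 0.123) or 3 (0.129) and without young control replicate 1 (0.0504) or 3 (0.0729). Without young control replicate 2, the highest control library, the 4 h change was 1.54 (adjusted p = 0.0112).

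In aged cells Dcstamp read 2.24, 1.57 and 1.49 CPM in control and 6.76, 1.95 and 3.74 CPM at 24 h, which overlap. The aged 24 h change was 1.24 ± 0.43 (log2, SE; adjusted p = 0.0896), and it was called without aged 24 h replicate 2 (1.58, adjusted p = 0.0255). With LPS the young libraries spread from 0.246 to 4.39 CPM and the change of 0.48 was not called (adjusted p = 0.193). Ocstamp, its partner in fusion, stayed at or below 0.891 CPM in every group mean.

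Atp6v0d2 encodes the d2 subunit of the vacuolar proton pump, has a role in precursor fusion, and lies at chr4:19876841-19922605 on the minus strand. It rose with β-glucan, stood high on day 3 and fell with LPS. Young control replicates 1 to 3 read 97.9, 181 and 85.0 CPM and replicates 4 to 6 read 40.2, 39.6 and 51.0 CPM. Young libraries read 157, 142 and 156 CPM at 4 h, 291, 245 and 299 CPM at 24 h, and 188, 233 and 209 CPM on day 3. The 24 h and day 3 libraries lay above all 6 control libraries, and the 4 h libraries lay above all but replicate 2. The fitted change, which compares with the control of the same set, was 1.32 ± 0.23 (log2, SE; adjusted p = 0.000202) at 24 h and was called in 9 of 9 fits leaving out 1 library. On day 3 it was 0.91 ± 0.23 (adjusted p = 0.0552), and without young control replicate 2 it was 1.23 (adjusted p = 0.00134).

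Aged libraries held Atp6v0d2 at 115, 136 and 108 CPM in control, 326, 187 and 179 CPM at 24 h, and 187, 194 and 185 CPM on day 3. Both later groups lay above the control without overlap. The 24 h change of 0.94 ± 0.25 (log2, SE) was called (adjusted p = 0.0243), but not without aged 24 h replicate 1 (0.61, adjusted p = 0.299) or without any one of the aged controls (adjusted p = 0.0574 to 0.0981). The day 3 change was 0.65 (adjusted p = 0.49).

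With LPS, Atp6v0d2 in young replicates 1 to 3 averaged 59.0 CPM against 121 CPM in their control, and in replicates 4 to 6 it averaged 30.5 against 43.6 CPM. The change was -0.78 ± 0.19 (log2, SE; adjusted p = 0.000442) over both sets. It was -1.04 (adjusted p = 0.000561) with replicates 1 to 3 alone and -0.51 (adjusted p = 0.0638) with replicates 4 to 6 alone, a split added after seeing the data. Aged LPS libraries read 73.3, 49.4 and 50.9 CPM, all below the aged control, with a change of -1.05 ± 0.26 (adjusted p = 0.000865). Primed LPS libraries read 112, 117 and 102 CPM in young cells and 129, 96.5 and 91.0 CPM in aged cells, all above the naive LPS libraries of their age. The primed minus naive difference was 0.77 ± 0.24 (adjusted p = 0.076) in young and 0.87 ± 0.26 (adjusted p = 0.116) in aged cells, neither called by edgeR.

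**Figure D3:**
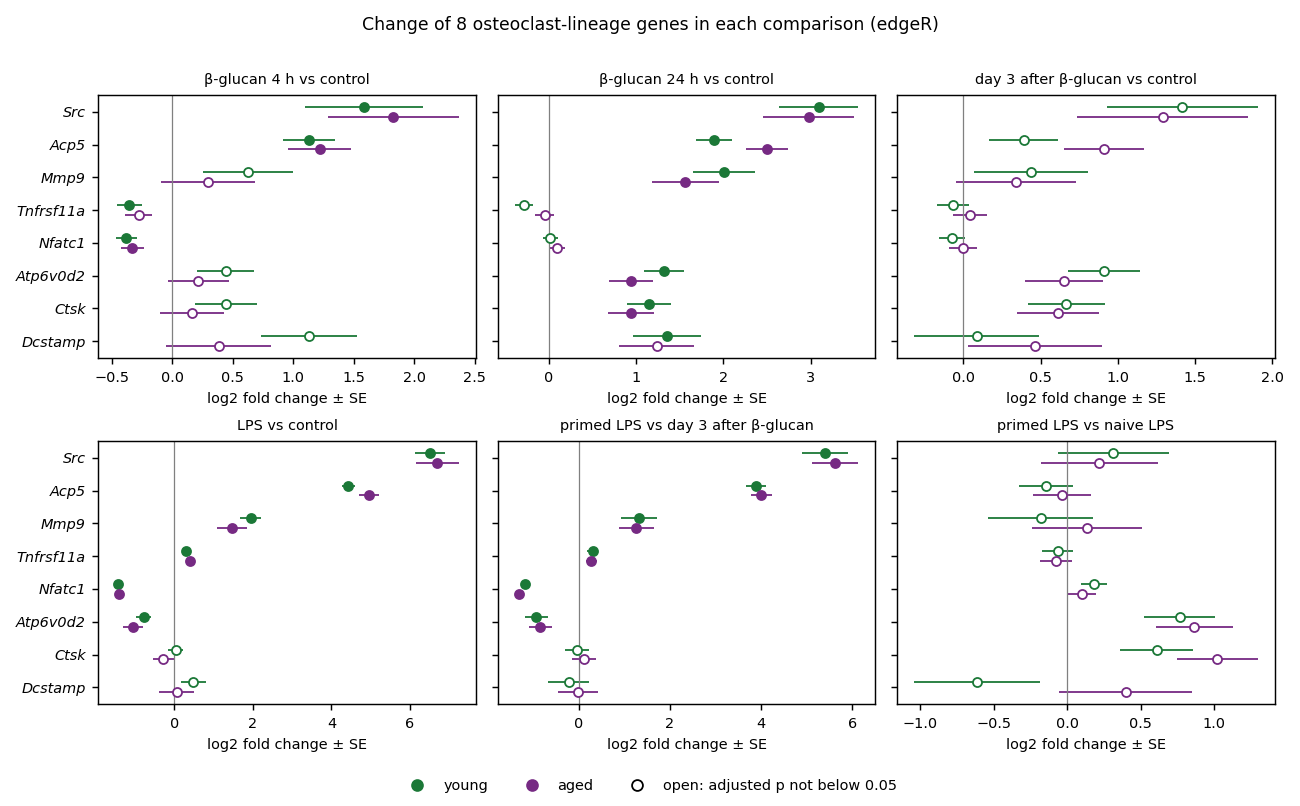
Log2 fold change ± SE of the 8 tested members in 6 comparisons, young in green and aged in purple; filled points have an adjusted p below 0.05 and open points do not. The members sit mostly to the right after 24 h of β-glucan, are nowhere called between primed and naive LPS, where Ctsk and Atp6v0d2 lie to the right at both ages, and split with LPS, where the position of Tnfrsf11a turns to lower under scaling by total counts.

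Src, a tyrosine kinase that osteoclasts need to form their ruffled border and that lies at chr2:157418444-157471862 on the plus strand, had the largest log2 fold changes of the 8 tested members at 4 h, at 24 h and with LPS at both ages. Young control libraries ran from 1.21 to 2.85 CPM. The 3 young libraries at 4 h read 6.50, 4.57 and 5.03 CPM and those at 24 h read 25.4, 3.32 and 17.3 CPM. Every library lay above the control range at both times, although the 24 h values spread widely. The changes were 1.58 ± 0.49 (log2, SE; adjusted p = 0.0293) at 4 h and 3.09 ± 0.45 (adjusted p = 1.69e-05), an 8.54-fold difference, at 24 h. Aged libraries read 1.90, 1.51 and 1.66 CPM in control, 7.21, 4.40 and 6.31 CPM at 4 h, and 27.4, 5.92 and 6.63 CPM at 24 h. The aged changes were 1.83 ± 0.54 (adjusted p = 0.0353) and 2.98 ± 0.52 (adjusted p = 0.000464). The 24 h call held when any 1 library was left out in both ages, but in aged cells not with the groups fitted alone (2.96, adjusted p = 0.130); the 4 h call held in 3 of 9 such fits in young and 1 of 6 in aged cells.

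With LPS, Src in young libraries ran from 170 to 209 CPM with a median of 177, and the aged libraries read 168, 177 and 179 CPM. Primed LPS libraries read 203, 213 and 192 CPM in young and 216, 210 and 185 CPM in aged cells. The lowest LPS library of all, at 168 CPM, was far above the highest library without LPS, at 27.4 CPM. The change was 6.51 ± 0.39 (log2, SE; adjusted p = 9.1e-16), a 90.9-fold difference, in young and 6.69 ± 0.55 (adjusted p = 5.09e-12), a 103-fold difference, in aged cells. Primed and naive LPS overlapped for this gene in young cells. In aged cells every primed library lay above every naive one, a difference of 0.22 that edgeR did not call (adjusted p = 0.914). In the fit of the LPS effect in primed minus naive cells Src differed by -1.10 ± 0.57 (adjusted p = 0.455) in young cells, whose day 3 libraries read 3.93, 5.11 and 5.26 CPM. That difference was called when the young groups were fitted alone (adjusted p = 0.00778).

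Of the 3 members that encode secreted enzymes of bone resorption, Acp5 changed most with LPS. It encodes tartrate-resistant acid phosphatase, the classical stain for osteoclasts, and lies at chr9:22126727-22135711 on the minus strand. The opposite-strand transcript 6530413G14Rik, which overlaps it, had at most 6 reads in any library. Acp5 in young control libraries ran from 1.06 to 1.89 CPM, and the young libraries read 3.71, 2.27 and 3.93 CPM at 4 h and 6.32, 3.97 and 6.48 CPM at 24 h. All 6 treated libraries exceeded all control libraries. The changes were 1.13 ± 0.21 (log2, SE; adjusted p = 0.000159) at 4 h and 1.89 ± 0.21 (adjusted p = 1.78e-08) at 24 h. Aged libraries read 1.11, 1.10 and 0.537 CPM in control, 1.76, 2.05 and 2.39 CPM at 4 h and 6.12, 4.84 and 4.08 CPM at 24 h, with changes of 1.22 ± 0.26 (adjusted p = 0.00116) and 2.50 ± 0.24 (adjusted p = 3.87e-09). With the groups fitted alone the aged 4 h change was not called (1.18, adjusted p = 0.0742). By day 3 the young libraries were at 2.19, 1.77 and 1.95 CPM and overlapped the control, a fall of -1.50 from 24 h (log2, adjusted p = 2.37e-05).

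Acp5 in young LPS libraries ran from 30.1 to 38.4 CPM with a median of 32.5, and aged LPS libraries read 26.5, 24.9 and 31.2 CPM. Every LPS library, primed ones included, lay at or above 24.5 CPM, and no other library exceeded 6.48 CPM. The change was 4.43 ± 0.17 (log2, SE; adjusted p = 1.2e-25), or 21.5-fold, in young and 4.96 ± 0.25 (adjusted p = 7.06e-21), or 31-fold, in aged cells. The LPS effect did not differ detectably by age: the difference was 0.53 with a 95% interval of -0.05 to 1.11. Even so Acp5 remained low next to other acid phosphatases, at 16.4 CPM per kb with LPS in young cells against 78.9 for the lysosomal Acp2.

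Acp5 and Src were the members that rose at 4 h, at 24 h and with LPS, so the sequence before their annotated starts is shown. Promoter sequence came from RefSeq on GRCm38.p6, the assembly of mm10, and 5 of the 9 members were matched in the table used here. Each sequence runs 5′ to 3′ toward the start, up to 250 bases long and ending before any annotated untranslated exon. Capitals mark matches, on either strand, to 6 motifs: AP-1 (TGANTCA), the NFAT core (GGAAA), the PU.1 core (GAGGAA), an E-box (CACGTG), the MITF-type M-box (TCATGTG) and the NF-κB consensus. Acp5 has 3 annotated starts on the minus strand of chr9, at 22130598, 22131865 and 22135746. In that order the sequences shown are chr9:22130609-22130848, chr9:22131866-22132115 and chr9:22135747-22135996. The Src sequence is chr2:157424043-157424279 on the plus strand, before a start at 157424293. Positions below count from the annotated start, and the proximal Acp5 and the Src sequence end short of it.
Acp5 proximal: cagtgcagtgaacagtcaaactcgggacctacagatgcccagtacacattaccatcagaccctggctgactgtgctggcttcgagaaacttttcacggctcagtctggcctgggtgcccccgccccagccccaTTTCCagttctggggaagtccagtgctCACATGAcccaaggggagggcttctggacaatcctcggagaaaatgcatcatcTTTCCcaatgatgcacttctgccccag
Acp5 middle: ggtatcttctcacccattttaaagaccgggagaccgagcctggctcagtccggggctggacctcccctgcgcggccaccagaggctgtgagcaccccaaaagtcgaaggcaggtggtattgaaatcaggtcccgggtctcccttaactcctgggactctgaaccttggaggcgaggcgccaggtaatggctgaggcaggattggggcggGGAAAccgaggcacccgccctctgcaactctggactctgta
Acp5 distal: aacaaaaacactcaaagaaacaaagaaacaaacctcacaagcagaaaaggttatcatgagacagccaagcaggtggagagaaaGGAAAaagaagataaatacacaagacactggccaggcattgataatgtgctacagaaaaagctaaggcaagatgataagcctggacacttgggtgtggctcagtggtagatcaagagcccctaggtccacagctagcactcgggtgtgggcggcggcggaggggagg
Src: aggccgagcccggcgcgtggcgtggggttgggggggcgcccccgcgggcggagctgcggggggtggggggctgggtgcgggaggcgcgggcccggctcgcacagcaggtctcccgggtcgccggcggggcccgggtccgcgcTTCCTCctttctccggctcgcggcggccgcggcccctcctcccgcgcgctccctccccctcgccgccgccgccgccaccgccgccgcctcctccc
The proximal Acp5 sequence held 1 M-box match, CACATGA on the printed strand, 90 to 84 bases before the start, and NFAT cores at 117 to 113 and 37 to 33 bases before it. The middle one held an NFAT core 41 to 37 bases before its start and the distal one held one 167 to 163 bases before. Src held 1 PU.1 core, printed as TTCCTC, 108 to 103 bases before the start. No AP-1, E-box or NF-κB match was in any of the 4 windows, and no marked match overlaps another. Of 32851 promoters searched over 250 bases, slightly more than the 240 and 237 bases of the proximal Acp5 and the Src sequence, 3.25% held an M-box, 55.6% an NFAT core, 23.3% a PU.1 core, 6.75% AP-1, 6.02% the E-box and 3.9% the NF-κB consensus. These are letter matches and no binding was measured.

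Ctsk encodes cathepsin K, the protease that cuts bone collagen, and lies at chr3:95499256-95509362 on the plus strand. It rose with β-glucan at 24 h and showed no LPS call on the TMM scale. Young control libraries ran from 2.91 to 3.79 CPM and young 24 h libraries read 8.19, 9.51 and 6.35 CPM, with no overlap. The change was 1.15 ± 0.25 (log2, SE; adjusted p = 0.00136). Aged libraries read 4.37, 3.76 and 3.57 CPM in control and 9.65, 6.01 and 6.71 CPM at 24 h, also without overlap, a change of 0.94 ± 0.26 (adjusted p = 0.0255). The aged call was lost without aged 24 h replicate 1 (0.71, adjusted p = 0.239) and without any one aged control (adjusted p = 0.0514 to 0.115).

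Day 3 Ctsk values of 5.24, 5.49 and 6.53 CPM in young cells all exceeded the control, with a change of 0.67 that was not called (adjusted p = 0.283). Young LPS libraries ran from 1.91 to 4.89 CPM around the control level, with a change of 0.03 (adjusted p = 0.904). Under total counts that change was -0.77 (adjusted p = 0.000837) in young and -1.02 (adjusted p = 0.00167) in aged cells, beside shifts of the median gene of -0.8963 and -0.8177. Primed LPS libraries read 8.02, 5.43 and 6.07 CPM in aged cells and all exceeded the naive ones at 3.36, 2.69 and 3.53 CPM, a difference of 1.02 ± 0.28 (adjusted p = 0.0587). In young cells the primed and naive libraries overlapped, with a difference of 0.61 ± 0.25 (adjusted p = 0.193).

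Mmp9 encodes gelatinase B, a matrix metalloproteinase that osteoclast precursors use in migration, and lies at chr2:164940780-164955850 on the plus strand. Young control replicates 1 to 3 read 1.61, 2.14 and 1.64 CPM and replicates 4 to 6 read 3.69, 4.61 and 3.05 CPM. Young 24 h libraries read 8.69, 4.26 and 9.20 CPM, so replicate 2 lay within the range of the control. The change was 2.01 ± 0.35 (log2, SE; adjusted p = 0.000144) and was called in 9 of 9 fits leaving out 1 library. Aged libraries read 3.12, 2.34 and 2.83 CPM in control and 15.8, 3.73 and 4.98 CPM at 24 h, above the control in each, with a change of 1.56 ± 0.38 (adjusted p = 0.0105). Without the highest library, aged 24 h replicate 1, the change was 0.65 (adjusted p = 0.411). The aged call was also lost without aged control replicate 2 (1.46, adjusted p = 0.082) and with the groups fitted alone (1.55, adjusted p = 0.240).

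With LPS, Mmp9 averaged 7.14 CPM against 1.80 CPM in young replicates 1 to 3 and 14.1 against 3.79 CPM in replicates 4 to 6, and no LPS library overlapped the control. The change was 1.94 ± 0.28 (log2, SE; adjusted p = 1.32e-07) in young and 1.47 ± 0.39 (adjusted p = 0.00141) in aged cells, where LPS libraries read 9.82, 5.61 and 7.63 CPM. The aged change was 0.73 under total counts (adjusted p = 0.0838). Day 3 libraries read 2.46, 2.41 and 2.57 CPM in young cells, a fall from 24 h of -1.57 (adjusted p = 0.0114) that was called in 1 of the 6 fits leaving out 1 library.

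In the 24 h groups the same libraries were the highest or lowest for most members, as was also seen in other groups. Aged 24 h replicate 1 was the highest of its group for 6 of the 8 tested members and the lowest for the other 2. Aged replicate 1 was likewise highest for 6 of 8 in control and at 4 h, and for 5 of 8 on day 3. Young 24 h replicate 2 was the lowest of its group for 5 of 8 and the highest for 3. Young day 3 replicate 1 and young LPS replicate 3 were also lowest for 5 of 8. Itgb3, which is no member, showed the same spread, with 80.9, 34.6 and 83.1 CPM in young and 72.5, 30.0 and 31.0 CPM in aged cells at 24 h. Without aged 24 h replicate 1 the number of members called in aged cells went from 5 to 2, which left Acp5 (2.34, adjusted p = 6.23e-08) and Src (1.89, adjusted p = 0.0286). Without young 24 h replicate 2 the number stayed at 6, and without replicate 1 or 3 it was 5.

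No member was called by edgeR between aged and young cells in any condition. In control 0.442% of all genes were called; 2 members, Acp5 and Atp6v0d2, had an unadjusted p below 0.05, and DESeq2 called Acp5 (adjusted p = 0.0383). Acp5 was lower in aged control by -0.81 ± 0.23 (log2, SE; edgeR adjusted p = 0.119) and Atp6v0d2 differed by 0.71 ± 0.22 (adjusted p = 0.167). The latter was called without young control replicate 2 (0.93, adjusted p = 0.009). Aged control averaged 120 CPM of Atp6v0d2, beside 121 CPM in young control replicates 1 to 3 and 43.6 CPM in replicates 4 to 6. The fit places young control midway between these sets, so the size of this difference depends on the set used. At 4 h of β-glucan 0.21% of all genes were called and 2 members, Acp5 (-0.67, adjusted p = 0.472) and Dcstamp (-1.01, adjusted p = 0.717), had an unadjusted p below 0.05. At 24 h 0.312% of all genes were called, on day 3 0.068%, with LPS 0.895% and with primed LPS 0.164%, and in these 4 conditions 0 members had an unadjusted p below 0.05. DESeq2 called 0 members in those 4 and at 4 h.

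Tests of whether a treatment acted differently in aged and young cells called no member either. Of all genes 0.00567% were called for the effect of 4 h of β-glucan and 0% each for 24 h, day 3 and LPS. For these 4 differences 0 members had an unadjusted p below 0.05 and DESeq2 called 0 members. Over all genes with no call, 516 had an unadjusted p below 0.05 at 24 h, 498 on day 3 and 1037 with LPS. The intervals remain wide: the 24 h effect on Acp5 differed by 0.61 with a 95% interval of -0.05 to 1.26, and that on Src by -0.11 with an interval of -1.56 to 1.33. With LPS the effect on Src differed by 0.19, from -1.10 to 1.47. Priming did not alter the LPS effect on a member past the threshold, with 1.01% of all genes called in young and 0.0113% in aged cells. In each age 1 member had an unadjusted p below 0.05, Nfatc1 in young (0.26, adjusted p = 0.341) and Acp5 in aged cells (-0.95 ± 0.33, adjusted p = 0.481), and DESeq2 called 0.

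Genes of the same machinery were taken from pathway lists, described by their counts. Of all genes tested, 12.1% in young and 6.47% in aged cells were called at 4 h of β-glucan, and 11.5% and 5.22% at 24 h. With LPS 65% and 55.5% were called. These TMM-scale shares apply to every list count below, and a count near its share is not particular to the list. The counts include members, and lists overlap: Atp6v0d2 is in the fusion, acid secretion and pump lists, and Itgb3 in the fusion and podosome lists. The vacuolar proton pump moves protons into lysosomes and the resorption space, and 21 of its genes were tested, Atp6v0d2 among them. After 24 h of β-glucan 14 of the 21 rose and none fell in young cells, with a median of 0.30, and 9 rose in aged cells, with a median of 0.22, where 11.5% and 5.22% of all genes were called. Under total counts, which moved the median gene by -0.1013 in young cells, 10 and 3 rose and none fell. Tcirg1, the a3 subunit of the osteoclast pump, changed by 0.68 ± 0.11 in young and 0.69 ± 0.12 in aged cells, and Atp6v0c, the proton-carrying ring, by 0.56 and 0.63. Atp6v0d1, the widely expressed paralog of Atp6v0d2, changed by 0.31 (adjusted p = 0.00254) in young and 0.25 (adjusted p = 0.0444) in aged cells. In the list of acid secretion and transport 5 of 10 rose at each age, or 4 under total counts, including Clcn7, the chloride-proton exchanger of lysosomes, at 0.76 and 0.73. With LPS 6 of these rose and 4 fell in young cells, or 4 and 6 under total counts, and 6 and 3 became 4 and 5 in aged cells.

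With LPS the pump list split differently by scaling. On the TMM scale 14 of 21 rose and 3 fell in young cells, and under total counts 2 rose and 14 fell; in aged cells the split went from 14 and 2 to 2 and 14. Tcirg1 (1.51 and 1.58) and Atp6v1e1 (1.40 and 1.30) stayed higher under both scalings. Atp6v0d2 was lower under both, and Atp6v0d1 was not called on the TMM scale (0.05, adjusted p = 0.457 in young; 0.17, adjusted p = 0.0593 in aged cells). Per kb of gene length Atp6v0d2 stood at 30.4 CPM in young control, 102 at 24 h and 16.5 with LPS, while Atp6v0d1 stood at 101, 126 and 104.

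**Figure D4:**
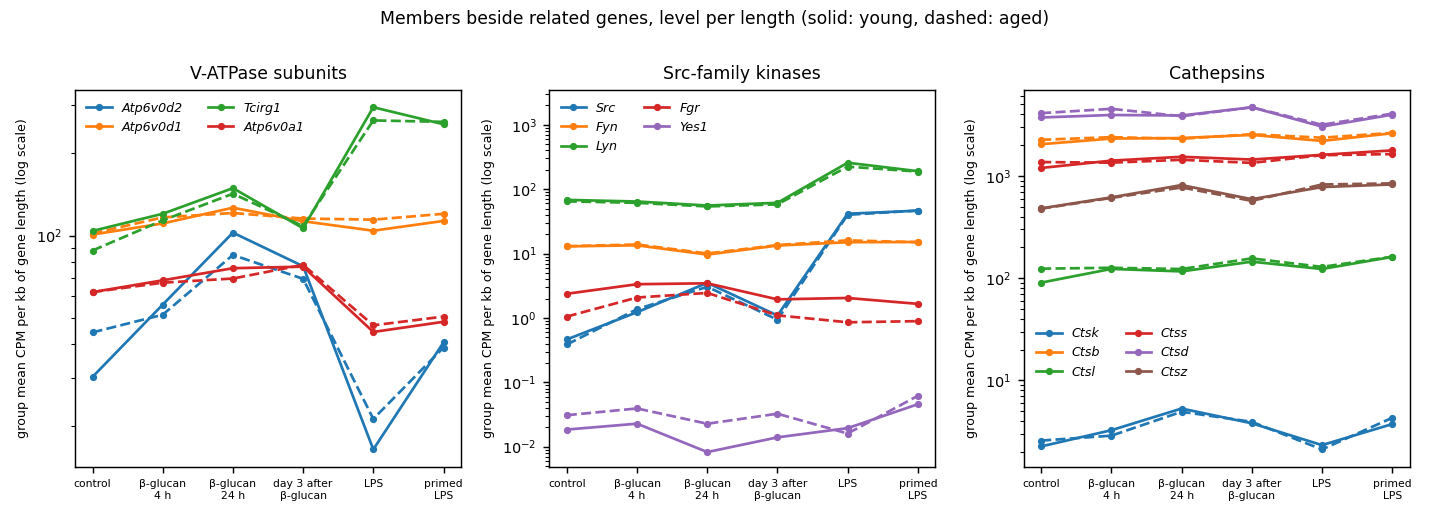
Mean level per kb of gene length (CPM per kb, log axes) by condition for proton pump subunits, Src-family kinases and cathepsins, solid lines young and dashed lines aged. In young cells Atp6v0d2 reaches 102 at 24 h against 126 for Atp6v0d1, Src reaches 41.6 with LPS against 258 for Lyn, and Ctsk reaches 5.30 at 24 h while Ctsb stands at 2041 in control.

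Among Src-family kinases Src was minor in young control, at 0.464 CPM per kb against 68.2 for Lyn and 12.9 for Fyn. With LPS it reached 41.6, above Fyn at 14.998, while Lyn reached 258. With LPS 65% of all genes were called in young and 55.5% in aged cells on the TMM scale. Of the 10 genes in that list 6 rose and 1 fell with LPS in young cells, and 4 rose and 5 fell under total counts. In aged cells 5 and 1 became 4 and 4. Lyn (1.91 and 1.79) rose under both. At 24 h of β-glucan 2 rose and 1 fell at each age on the TMM scale, the latter being Fyn (-0.43 and -0.38). Under total counts 1 rose and 2 fell in young and 2 rose and 2 fell in aged cells.

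Ctsk was likewise minor among cathepsins, at 2.26 CPM per kb in young control against 2041 for Ctsb and 3726 for Ctsd. At 24 h 5 of 13 cathepsins rose and 1 fell in young cells and 2 rose in aged cells, or 3 and 1 in young and 1 in aged cells under total counts; Ctsz rose by 0.78 and 0.69 and Ctsc fell by -0.38 in young cells. With LPS 65% of all genes were called in young and 55.5% in aged cells on the TMM scale. Of the cathepsins 7 rose and 1 fell in young cells on that scale. Under total counts 1 rose and 10 fell in young cells, and 4 and 1 became 1 and 10 in aged cells. Of 18 genes of metalloproteinases and their inhibitors 3 rose and 1 fell at 24 h at each age, or 2 and 2 in young cells under total counts. Mmp14, a membrane-bound collagenase, rose by 0.73 and 1.03, and Mmp27 fell by -0.96 and -1.08. With LPS 10 rose and 2 fell in young cells, or 6 and 5 under total counts, and 7 and 2 became 4 and 6 in aged cells. Mmp13, an interstitial collagenase, rose by 6.54 and 6.63 under LPS and reached 864 CPM per kb in young cells, where Mmp9 reached 3.00. Of the 4 acid phosphatases 2 rose at 24 h at each age, Acp5 and Acp2 (0.32 and 0.41), or 1 in young cells under total counts. With LPS 2 rose and 1 fell at each age, or 1 rose and 3 fell in young and 1 rose and 2 fell in aged cells under total counts.

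Upstream of the members, 16 genes of RANK signalling were tested. At 4 h 6 rose and 1 fell in young cells and 5 rose in aged cells, where 12.1% and 6.47% of all genes were called. At 24 h 3 rose and 1 fell in young and 3 rose in aged cells, where 11.5% and 5.22% were called. Under total counts the 4 h split was 5 and 2 in young and 4 and 1 in aged cells, and at 24 h 3 rose and 4 fell in young cells. Nfkb2, the precursor of p52 in the slower NF-κB branch, rose at 4 h by 1.36 and 1.44 and its partner Relb by 1.34 and 1.53, as Tnfrsf11a fell in young cells. Of 17 osteoclast transcription factors 8 rose and 1 fell at 4 h in young cells, and 6 and 1 in aged cells, while Nfatc1 fell; under total counts 7 rose and 1 fell in young cells. Prdm1, which represses inhibitors of osteoclast genes, rose by 0.93 and 0.91, Tfec, a relative of MITF, by 1.00 and 0.64, Mitf by 0.60 and 0.48, and Spi1, which encodes PU.1, by 0.60 and 0.50. With LPS 10 factors rose and 5 fell in young cells, or 9 and 6 under total counts, and 10 and 6 became 9 and 6 in aged cells. On the TMM scale 65% of all genes were called with LPS in young and 55.5% in aged cells. Prdm1 (2.86 and 2.94), Tfec (2.99 and 2.73), Spi1 (2.07 and 2.00) and Mitf (1.82 and 1.75) rose under both scalings, opposite in sign to Nfatc1. For RANK signalling 11 rose and 2 fell with LPS in young cells, or 6 and 6 under total counts, and 10 and 1 became 6 and 6 in aged cells.

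In the list of 13 calcineurin and NFAT genes, which carry calcium signals to NFATc1, 1 rose and 3 fell at 4 h in young cells, or 1 and 5 under total counts, and 1 rose and 2 fell in aged cells. Nfatc2, which starts Nfatc1 expression in osteoclast precursors, fell at 4 h by -1.22 ± 0.15 (log2, SE; adjusted p = 7.47e-08) in young and -1.13 ± 0.16 (adjusted p = 1.04e-06) in aged cells. Rcan1, a calcineurin inhibitor that NFAT itself induces, rose by 1.14 and 0.88. With LPS Nfatc2 fell by -4.20 ± 0.13 (adjusted p = 3.99e-28) in young and by -4.10 ± 0.19 in aged cells, a larger change than that of Nfatc1, and Nfatc3 fell by -1.04 and -0.80. The list as a whole had 4 up and 5 down with LPS at each age on the TMM scale. Under total counts it had 2 up and 10 down in young or 2 and 9 in aged cells. The TMM-scale share of all genes called with LPS was 65% in young and 55.5% in aged cells. Of 7 repressors of osteoclast formation 5 rose and 2 fell with LPS in young cells, or 2 and 4 under total counts, and 4 and 2 became 2 and 3 in aged cells. Irf8 rose (1.73 and 1.59) under both scalings.

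Of 16 ITAM co-stimulation genes, the class to which Oscar belongs, 3 rose and 2 fell at 4 h at each age, and under total counts 1 rose and 3 fell. With LPS 6 rose and 4 fell in young cells, or 5 and 11 under total counts, and 6 and 5 became 5 and 10 in aged cells. For this list and those that follow, the TMM-scale share of all genes called with LPS was 65% in young and 55.5% in aged cells. The M-CSF list had 2 up and 1 down of 12 at 24 h in young cells, or 1 and 1 under total counts, and 1 up in aged cells. With LPS it had 7 up and 3 down in young cells, or 3 and 8 under total counts, and 5 and 3 became 2 and 8 in aged cells. Of 14 fusion genes 6 rose and 1 fell at 24 h in young and 2 rose in aged cells, or 4 and 3 in young and 2 and 1 in aged cells under total counts. With LPS 5 rose and 7 fell in young cells, or 4 and 8 under total counts, and 3 and 5 became 3 and 7 in aged cells. Among 19 podosome and adhesion genes 5 rose and 2 fell at 24 h in young and 3 rose in aged cells, or 4 and 4 in young and 3 and 1 in aged cells under total counts. With LPS 10 rose and 8 fell in young cells, or 5 and 12 under total counts, and 9 and 8 became 5 and 12 in aged cells.

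Itgb3, part of the integrin through which osteoclasts attach to bone, is no member but belongs to lists that hold Atp6v0d2, Dcstamp and Src. It changed by 2.39 ± 0.24 (log2, SE; adjusted p = 3.02e-08) at 24 h in young and 1.62 ± 0.26 (adjusted p = 0.000128) in aged cells. On day 3 it was called where Atp6v0d2 was not, at 1.48 (adjusted p = 0.000664) in young and 1.17 (adjusted p = 0.0439) in aged cells. It fell with naive LPS by -1.63 and -1.54 and was higher in primed than naive LPS cells by 1.72 ± 0.27 (adjusted p = 0.000141) and 1.18 ± 0.29 (adjusted p = 0.037). Primed young LPS libraries held 12.3 to 14.004 CPM of Itgb3 against 2.75 to 4.92 CPM in naive ones.

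The genes whose level over the 12 group means was most like each member were found by Pearson's r among genes of at least 3 on the log2 CPM scale. Acp5 was most like Tcirg1 (r = 0.9955, n = 12 groups) and Cst7 (r = 0.9938), and Atp6v0d2 was most like Stac2 (r = 0.9908), Itgb3 (r = 0.9812) and Gla (r = 0.9678). Nfatc1 was most like Slc45a4 (r = 0.9976), Nfatc2 (r = 0.995) and Mtmr3 (r = 0.995), and Src like Fabp3 (r = 0.9947), Mtf1 (r = 0.9942) and Pfkfb3 (r = 0.9929). For Ctsk the nearest was Maoa (r = 0.9425), for Dcstamp Nom1 (r = 0.9454), for Mmp9 H2-D1 (r = 0.9848) and for Tnfrsf11a Snx2 (r = 0.9748). Among the members themselves Acp5 and Src went together (r = 0.988) and Nfatc1 ran opposite to Src (r = -0.936) and Acp5 (r = -0.904). Mmp9 went with Acp5 (r = 0.880) and Src (r = 0.856). Ctsk went with Atp6v0d2 (r = 0.834) and Dcstamp (r = 0.722), Dcstamp with Atp6v0d2 (r = 0.737), and for Ctsk and Acp5 the coefficient was near 0 (r = -0.0167). The 12 means share the contrast between 4 groups with LPS and 8 without, and points share depth and scaling, so the coefficients are descriptions of the group pattern.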

How the data were processed

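RNA was sequenced from 42 macrophage cultures in 12 groups. The deposited values used here are raw read counts per gene; reads were aligned with STAR to mm10, per the submitters' processing notes, and the counting tool and its strand setting are not given in the sources used here. The authors' table of normalized values was not used. Counts were tested in R 4.3.3 with edgeR 4.0.16 (filterByExpr by group with a minimum count of 10, TMM factors, quasi-likelihood F test with robust trended dispersion) in 1 fit over all 42 libraries, with a term for young replicates 4 to 6, and Benjamini-Hochberg adjustment over the 17648 genes tested. TMM factors were 1.13 to 1.28 without LPS and 0.667 to 0.777 with LPS. In age comparisons at control and LPS the young group stands midway between its replicate sets. Levels are CPM on the TMM-scaled library size, or the same per kb of the deposited gene length. The scripts were tested on simulated data.

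The members and lists were chosen with earlier results of these data known. Beyond the members, the genes named are at most 4 of a list, taken from those tested in order of adjusted p within a comparison, relatives of members within the lists, and the 3 tested protein-coding genes most like each member over the 12 group means of log2 CPM (prior count 2, mean of at least 3). Alternatives were DESeq2 1.42.0, its size factors within edgeR, scaling by total counts, no low-count filter, no set term, a replicate block, young replicates 1 to 3 alone, the groups of a comparison fitted alone, and each library left out. Young replicates 4 to 6 alone and changes relative to the median gene were added after seeing the data.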

Additional observations from a re-analysis of the deposited data

Results flagged for a closer look

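For Tnfrsf11a, the lowest of the 6 young LPS libraries, replicate 3, read 117 CPM, and the gap to the next library was 0.6627 of the group's range, above Dixon's 95% critical value for 6 libraries. It was the 1 library so marked in the 16 groups of 6 libraries examined over the 8 tested members, and chance marks about 1 group in 20. Without it the LPS change of Tnfrsf11a in young cells was 0.37 (log2, adjusted p = 3.81e-05, edgeR).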

How the results depend on the processing

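The direction of each called change of a member was the same under every alternative run, except Tnfrsf11a with LPS under total counts. There it was -0.50 (0.30 with TMM) in young and -0.33 (0.41) in aged LPS against control, and -0.37 (0.31) in young and -0.38 (0.28) in aged primed LPS against day 3; Ctsk in young LPS went from 0.03 to -0.77. The cause was not tested beyond the scaling itself. Outside the fits leaving out 1 library, moves of at most 1.5 times were of 1 member each. Counts of members called that differed by more than 1.5 times from the edgeR count, given in parentheses, were as follows. DESeq2 called 3 (1) for aged day 3 against 24 h, 2 (0) for aged primed against naive LPS, 1 (0) for aged against young control, 2 (0) for young day 3 against control and 1 (0) for young primed against naive LPS. With the groups fitted alone the count was 1 (5) for aged 24 h against control, 1 (0) for aged day 3 against control, 1 (0) for the primed minus naive LPS effect in young cells and 2 (0) for young day 3. Without the set term it was 1 (0) for young day 3 and 1 (0) for young primed against naive LPS; under total counts, and with young replicates 1 to 3 alone, it was 1 (0) for primed against naive LPS at each age.

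Leaving out 1 library at a time gave 2 to 6 members for aged 24 h (5), 1 to 3 for aged 4 h (3), 1 to 3 for aged day 3 against 24 h (1), 0 to 1 for aged against young control (0), 2 to 5 for young 4 h (4), 1 to 4 for young day 3 against 24 h (3), 0 to 1 for young day 3 against control (0) and 0 to 1 for young primed against naive LPS (0). The last was called without young LPS replicate 6 (Atp6v0d2, 0.87, edgeR adjusted p = 0.0139). Aged primed LPS against day 3 gave 4 to 6 members (6), and the same comparison in young cells gave 5 to 6 (6). Young 24 h gave 5 to 7 (6) and young LPS against control gave 6 to 7 (6).

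Replicate numbers are shared between groups. Deviations of same-numbered libraries had a median correlation over genes of 0.0121 in young and 0.0416 in aged cells. Above 0.1 were 0 of 45 in young and 1 of 45 in aged cells. For libraries of different number the median was -0.0062 and -0.0199. In every aged group, however, Nfatc1 was highest in replicate 3 and lowest in replicate 1. Low correlations over all genes cannot exclude a pairing, so whether the numbers pair the libraries is not known. With a replicate block the counts that moved by more than 1.5 times were 2 (1) for aged day 3 against 24 h, 2 (0) for aged primed against naive LPS, 1 (0) for aged against young control, 1 (0) for young day 3 and 1 (0) for young primed against naive LPS, while young 4 h, young 24 h and young day 3 against 24 h each gained 1 member, to 5 (4), 7 (6) and 4 (3). It ended no call of a member. Low counts limit what can be said of Oscar, with at most 14 reads in a library, and of Dcstamp, with as few as 7.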
